A study of Mus musculus with 6 samples.

Results

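Neuronal and GABA synthesis genes were followed in 6 RNA-seq libraries of KVTR cells, mouse cells that the labels call primary clear cell renal carcinoma cells, a cancer of kidney tubule epithelium. The 9 genes were taken by symbol from the 56691 genes of the deposited table: Gad1, Gad2, Vgf, Snap25, Syt1, Stmn2, Map2, Tubb3 and Ngfr. They were chosen by their CPM in these 6 libraries and by the dopamine over blank fit, so their levels and differences are given as a description. Of the libraries, 3 came from dopamine-treated cells (dopamine 1, 2 and 3) and 3 from cells without it, labelled blank. The blank libraries are called blank 2, blank 3 and blank U, the last because its column carries no number. Both groups carry the same cell line label and no other agent is named for either. No source used here gives the dose or duration of dopamine, or says whether libraries came from separate cultures, so the spread between them may be technical.

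GABA is the main inhibitory transmitter of the brain. The glutamate decarboxylases Gad1 and Gad2 make it from glutamate, a vesicular transporter loads it into synaptic vesicles, and Abat and Aldh5a1 break it down. Neurons release vesicle contents when the calcium sensor Syt1 acts on a SNARE complex that contains Snap25. They also carry a characteristic cytoskeleton with the tubulin Tubb3, the dendritic protein Map2 and the tubulin-binding protein Stmn2. Vgf is a neurosecretory protein stored in dense-core granules, and Ngfr is the low-affinity neurotrophin receptor p75.

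Upstream sequence of the glutamate decarboxylase genes is shown because Gad2 varied over a wider range between libraries than Gad1, and because the 250 bases before its start hold a motif that is rare among promoters. The sequences are RefSeq windows on GRCm38.p6, plus strand, at chr2:22622077-22622326 for Gad2 and chr2:70561879-70562128 for Gad1. The start used lies 122 bases from the nearest GENCODE transcript start for Gad2 and 34 bases for Gad1. Where the marked letters of Gad2 lie relative to its start thus depends on the annotation. In Gad2 the capitals mark the core of the RE1 element, the site of the repressor REST (AGCACC and GGACAG with 2 bases between them, overlapping the right-hand element GGACAGC), and the CREB core TGACG on the opposite strand. In Gad1 they mark TATAAA on the opposite strand.
Gad2: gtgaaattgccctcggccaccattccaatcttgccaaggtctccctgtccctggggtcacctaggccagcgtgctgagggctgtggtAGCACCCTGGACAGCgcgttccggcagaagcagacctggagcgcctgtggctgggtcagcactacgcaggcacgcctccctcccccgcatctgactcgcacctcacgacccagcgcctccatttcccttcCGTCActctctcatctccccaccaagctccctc
Gad1: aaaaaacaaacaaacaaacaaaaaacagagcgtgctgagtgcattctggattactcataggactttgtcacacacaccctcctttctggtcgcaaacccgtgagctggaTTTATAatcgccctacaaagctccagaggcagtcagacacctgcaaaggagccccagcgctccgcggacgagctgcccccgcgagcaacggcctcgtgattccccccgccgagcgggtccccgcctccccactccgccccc

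Searched on both strands, the RE1 core was present in 15 of 32851 RefSeq windows of this length (0.0457%), Gad2 among them. RefSeq windows were at hand for 6 of the 9 genes: Gad1, Gad2, Map2, Tubb3, Ngfr and Syt1, which had a pair of start sites. The right-hand element of RE1 (GGACAGC, 5.28% of all windows) was also found before Map2, and the left-hand element (CAGCACC, 5.73%) before Tubb3. The CREB core (TGACG, 17.8%) was found before Gad2 only, and TATAAA (12.4%) before Gad1 only, of these 6 genes. None of the 6 held the full CREB site TGACGTCA (1.55%) or the homeodomain core TAATTA (4.84%), and no motif searched was found before Syt1 or Ngfr. GC content of the 7 windows ran from 42.8% at the second Syt1 start to 81.2% before Map2, against a median of 52.4% over all windows. A match describes the letters only. The motifs were chosen after the sequences had been seen.

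The libraries differed in other ways that touch these genes. Total counts were 16771499 to 23375622 in dopamine libraries and 17954949 to 19766071 in blank libraries. Across the 15420 genes tested, dopamine 2, dopamine 3 and blank 2 correlated at 0.978 to 0.983 with each other (log2 CPM), while dopamine 1 correlated at 0.904 to 0.944 and blank U at 0.898 to 0.920 with their other 5 libraries. Of 16 astrocyte markers, 14 reached 1 CPM in every library, among them Gfap, Aqp4 and the glutamate transporter Slc1a3. Their summed level was 7956 to 14588 CPM in dopamine libraries and 7022 to 14218 CPM in blank libraries, where CPM are counts scaled to a common library size. Of 21 renal tubule markers, 11 stayed below 1 CPM in every library, Cdh16 and Umod among them, and the water channel Aqp2 had no count. The summed level of the 21 was 144 to 439 CPM in dopamine libraries and 177 to 368 CPM in blank libraries. Of 11 clear cell renal carcinoma markers, 7 reached 1 CPM in every library, with a summed level of 5673 to 8967 CPM in dopamine libraries and 4182 to 6940 CPM in blank libraries. These lists share genes: Vim is also among the astrocyte markers, and Pax2 and Pax8 are also among the renal tubule markers. The sums are thus not independent, and a high sum need not come from genes particular to the named cell type. No count in a library allows up to 3, or 0.128 to 0.179 CPM of the unscaled totals. Of 15 neuronal markers, 7 reached 1 CPM in every library, while Rbfox3 and the vesicular transporters Slc32a1 and Slc17a6 stayed below it throughout. The list holds 5 of the 9 genes, and its summed level was 89.0 to 457 CPM in dopamine libraries and 78.8 to 224 CPM in blank libraries. In bulk RNA, fewer cells of a type and less RNA per cell cannot be told apart.

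**Figure D1:**
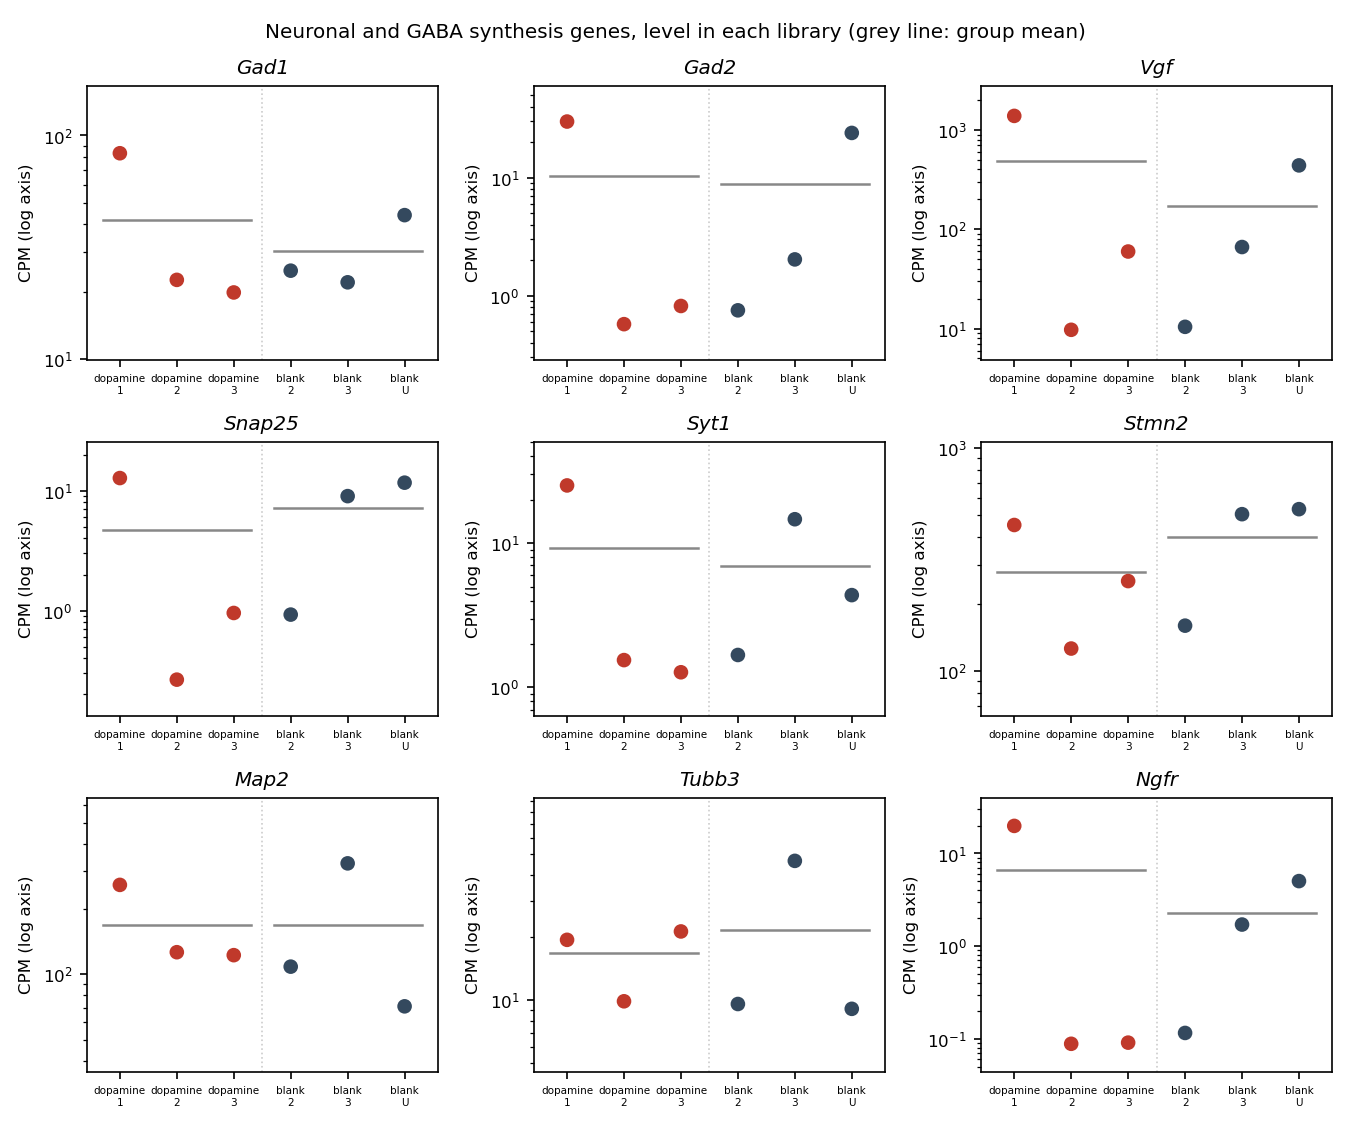
Level of each gene in CPM (log axis) in the 3 dopamine libraries (red, left) and the 3 blank libraries (dark, right), with blank U last and grey lines at the group means. Gad2, Vgf, Snap25, Stmn2, Syt1 and Ngfr share their 3 highest libraries, dopamine 1, blank 3 and blank U, while Map2 and Tubb3 peak in blank 3.

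Gad1, on chromosome 2 (GRCm39, 70383416 to 70432358, plus strand), stood at 83.3, 22.6 and 19.8 CPM in dopamine 1, 2 and 3, against 24.8, 22.0 and 44.0 CPM in blank 2, blank 3 and blank U. The groups overlapped. Dopamine 1 and blank U held the higher values, and the other 4 libraries lay between 19.8 and 24.8 CPM. Gad2, also on chromosome 2 (22512217 to 22583886, plus strand), was at 29.9, 0.57 and 0.82 CPM in dopamine 1, 2 and 3, against 0.75, 2.03 and 23.9 CPM in blank 2, blank 3 and blank U. The same pair of libraries was high, and the low values rested on 13 to 38 counts. Between its highest and lowest library Gad2 differed 52.0-fold and Gad1 4.20-fold.

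Per length, Gad1 exceeded Gad2 in each library. In dopamine libraries Gad1 stood at 2.44 to 11.3 FPKM and Gad2 at 0.095 to 5.29 FPKM, and in blank libraries Gad1 at 2.97 to 6.08 FPKM and Gad2 at 0.12 to 4.296 FPKM. FPKM are counts scaled by exonic length and library total. Gad2 made up 31.8%, 3.20% and 5.09% of the Gad1 and Gad2 FPKM in dopamine 1, 2 and 3, against 3.79%, 10.7% and 41.4% in blank 2, blank 3 and blank U. The larger share in dopamine 1 and blank U went with a larger sum of both genes there, 16.6 and 10.4 FPKM, against 2.58 to 3.32 FPKM in the other 4. Gad1os, an antisense gene inside the Gad1 span, had 14 to 46 counts per library. The kit does not mark strand, so its reads cannot be told from those of Gad1, which had 412 to 1453.

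Across libraries, the mean of the 13 other tested genes of GABA synthesis, packaging and breakdown lay at -0.40, 0.40 and 0.19 log2 units relative to the 6 libraries in dopamine 1, 2 and 3, against 0.24, 0.23 and -0.67 in blank 2, blank 3 and blank U. This mean was thus lowest in dopamine 1 and blank U, the libraries in which the decarboxylases were highest. Single genes of the list differed: Pdxk and Got2 were highest in dopamine 1, and Got1 in blank U. Slc32a1, the vesicular GABA transporter, had at most 0.045 CPM in dopamine libraries and at most 0.21 CPM in blank libraries. Of 18 genes of GABA synthesis, packaging and breakdown, 15 were tested. By edgeR's quasi-likelihood test 0 passed an adjusted p of 0.05, as for 0.0% of all 15420 genes tested, and 0 had an unadjusted p below 0.05. DESeq2 likewise made 0 calls. On the higher side in the dopamine group were 12 of the 15, with a median log2 fold change of 0.20 against 0.01 over all genes tested, where 51.7% lay on the higher side.

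Pdxk, which makes the pyridoxal phosphate cofactor of the decarboxylases, was at 232, 91.1 and 58.2 CPM in dopamine 1, 2 and 3, against 55.7, 75.6 and 69.7 CPM in blank 2, blank 3 and blank U (log2 fold change 0.92 ± 0.49 SE), with dopamine 1 apart. Aldh9a1, an aldehyde dehydrogenase that can form GABA from a polyamine product, was at 45.7 to 74.6 CPM in dopamine libraries and 38.2 to 57.1 CPM in blank libraries (0.45 ± 0.26). Glutamine synthetase Glul had the highest level per length, at 195 to 1140 CPM in dopamine libraries and 222 to 1036 CPM in blank libraries, and its lowest values were in dopamine 1 and blank U. Glutamate dehydrogenase Glud1 (-0.0060 ± 0.22) and the aminotransferase Got2 (0.18 ± 0.21) came next per length. Abat, the GABA transaminase, was at 192, 387 and 353 CPM in dopamine 1, 2 and 3, against 385, 342 and 118 CPM in blank 2, blank 3 and blank U. Its order was the reverse of that of the decarboxylases in dopamine 1 and blank U, where it was lowest.

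GABA receptor genes were tested for 12 of 21, with 2 on the higher side and 10 on the lower, a median of -0.29, and 0 calls by edgeR or DESeq2. In edgeR 0 of the 12 had an unadjusted p below 0.05. Gabbr1, a subunit of the metabotropic receptor, had the highest level per length, at 77.1 to 129 CPM in dopamine libraries and 81.3 to 115 CPM in blank libraries. Gabra3, a subunit of the ligand-gated receptor, was at 13.1 to 21.7 CPM in dopamine libraries and at 8.68, 81.8 and 1.01 CPM in blank 2, blank 3 and blank U. Among the smallest unadjusted p in the list were those of the subunit genes Gabra2 (-0.90 ± 0.60) and Gabrb2 (-1.17 ± 0.89), both highest in blank 3.

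Vgf had the widest range of the 8 genes with more than 3 counts in each library. On chromosome 5 (137055246 to 137062205, plus strand), it stood at 1386, 9.72 and 59.7 CPM in dopamine 1, 2 and 3, against 10.4, 66.3 and 440 CPM in blank 2, blank 3 and blank U. The highest library held 143 times the level of the lowest, and both extremes were dopamine libraries. By FPKM, Vgf ranked 47 among all genes of the table in dopamine 1 and 8921 in dopamine 2, against 231 in blank U and 8730 in blank 2.

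Other genes of neurosecretory granules varied less. Of 20, 16 were tested, 8 on each side with a median of 0.10, and 0 passed in edgeR or DESeq2, with 0 at an unadjusted p below 0.05. Cpe, a carboxypeptidase that trims prohormones, stood at 1779 to 2914 CPM in dopamine libraries and 1049 to 2186 CPM in blank libraries (0.62 ± 0.38). Pam, which amidates peptides, was at 310 to 473 CPM in dopamine libraries and 343 to 541 CPM in blank libraries (-0.21 ± 0.27). The granule protein Scg2 stood at 2.65 to 7.11 CPM in dopamine libraries and 2.20 to 23.3 CPM in blank libraries (-1.37 ± 0.79). Penk, the enkephalin precursor, was at 7.97, 2.70 and 7.73 CPM in dopamine 1, 2 and 3, against 4.86, 2.35 and 133 CPM in blank 2, blank 3 and blank U (-2.93 ± 1.45). Its difference came from blank U, and unlike Vgf it was not high in dopamine 1.

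Snap25, the neuronal SNAP protein (chromosome 2, 136555373 to 136624348, plus strand), was at 12.8, 0.27 and 0.96 CPM in dopamine 1, 2 and 3, against 0.93, 9.03 and 11.7 CPM in blank 2, blank 3 and blank U. Its 3 high libraries held 169 to 244 counts and its 3 low ones 6 to 21, with 1 dopamine library among the high ones. Its relatives did not split in this way. Snap23, the broadly expressed relative, stood at 32.5 to 49.1 CPM in dopamine libraries and 40.6 to 55.1 CPM in blank libraries, and Snap29 at 28.8 to 49.8 CPM in dopamine libraries and 42.3 to 45.9 CPM in blank libraries. Snap47 had the highest level per length in the family, at 216 to 276 CPM in dopamine libraries and 127 to 248 CPM in blank libraries. Snap25 took 1.90%, 0.031% and 0.11% of the family's FPKM in dopamine 1, 2 and 3, against 0.12%, 1.14% and 2.37% in blank 2, blank 3 and blank U.

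Syt1 (chromosome 10, 108333511 to 108846843, minus strand) was at 25.1, 1.55 and 1.27 CPM in dopamine 1, 2 and 3, against 1.68, 14.6 and 4.36 CPM in blank 2, blank 3 and blank U. Here blank 3 rather than blank U came next to dopamine 1. Among 17 synaptotagmin genes Syt1 ranked 10 by mean FPKM and took 0.16% to 3.39% of the family in dopamine libraries and 0.16% to 1.68% in blank libraries. Syt11, a synaptotagmin that does not bind calcium, led the family at 304 to 482 CPM in dopamine libraries and 227 to 565 CPM in blank libraries. Syt13 shared the split of Snap25, at 32.8, 5.74 and 5.91 CPM in dopamine 1, 2 and 3, against 5.15, 30.5 and 26.7 CPM in blank 2, blank 3 and blank U. In the same 3 libraries Syt4 was highest, at 4.82 CPM in dopamine 1, 6.79 CPM in blank 3 and 10.7 CPM in blank U, against 0.80 to 2.68 CPM in the other 3.

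Across the synaptic vesicle release list, 28 of 32 genes were tested, 12 on the higher side and 16 on the lower, with a median of -0.08. In edgeR 0 passed and 0 had an unadjusted p below 0.05, and DESeq2 made 0 calls. Napa, Vamp2 and Dnajc5 led the list by level per length. Napa stood at 90.7 to 134 CPM in dopamine libraries and 113 to 119 CPM in blank libraries. Vamp2 was at 74.5 to 140 CPM in dopamine libraries and 65.4 to 102 CPM in blank libraries, and Dnajc5 at 136 to 163 CPM in dopamine libraries and 143 to 166 CPM in blank libraries. Sv2a, a vesicle glycoprotein, was at 47.0 to 60.1 CPM in dopamine libraries and 13.3 to 43.4 CPM in blank libraries (0.72 ± 0.42), without overlap. Such a gap between the groups was found for 8.48% of all genes tested and for 1 of the 28. The synapsin Syn3 gave -1.34 ± 1.02. As a mean over the 26 tested genes that are not among the 9, this list lay at 0.57 log2 units in dopamine 1 and 0.70 in blank 3 relative to the 6 libraries, and between -0.50 and -0.17 in the other 4.

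Stmn2 had the highest FPKM of the 9 genes in 4 of the 6 libraries, Vgf being higher in dopamine 1 and blank U. It stood at 452, 126 and 253 CPM in dopamine 1, 2 and 3, against 160.0, 506 and 533 CPM in blank 2, blank 3 and blank U (chromosome 3, 8574420 to 8626666, plus strand). It ranked 403 to 2312 by FPKM among all genes of the table. The other stathmins stayed below it in each library, and Stmn2 took 79.2% to 85.2% of the family's FPKM in dopamine libraries and 73.4% to 85.0% in blank libraries. Stmn1, the general stathmin, stood at 5.17 to 11.1 CPM in dopamine libraries and 8.56 to 30.1 CPM in blank libraries (-1.15 ± 0.53). Stmn3 was at 2.70 to 4.36 CPM in dopamine libraries and 0.91 to 14.7 CPM in blank libraries. Stmn4 was at 11.5, 1.64 and 1.64 CPM in dopamine 1, 2 and 3, against 0.93, 25.2 and 0.58 CPM in blank 2, blank 3 and blank U.

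Map2 (chromosome 1, 66214432 to 66481742, plus strand) stood at 258, 126 and 122 CPM in dopamine 1, 2 and 3, against 108, 324 and 71.2 CPM in blank 2, blank 3 and blank U. Blank U, high for the decarboxylases and Vgf, was its lowest. Map4, the relative found in most cell types, was at 391.9 to 467 CPM in dopamine libraries and 473 to 525 CPM in blank libraries (-0.26 ± 0.21), without overlap, as for 8.48% of all genes tested (4.47% wholly below). Mapt, the axonal protein tau, stood at 34.0, 15.6 and 6.55 CPM in dopamine 1, 2 and 3, against 10.6, 33.9 and 3.31 CPM in blank 2, blank 3 and blank U. Like Map2 it was high in dopamine 1 and blank 3 and lowest in blank U. Map2 took 18.9% to 34.0% of the FPKM of Map2, Mapt and Map4 in dopamine libraries and 11.04% to 33.5% in blank libraries.

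Tubb3 (chromosome 8, 124138163 to 124148754, plus strand) was at 19.5, 9.90 and 21.4 CPM in dopamine 1, 2 and 3, against 9.61, 46.5 and 9.11 CPM in blank 2, blank 3 and blank U. Blank 3 stood apart, and dopamine 1 and 3 were level. Among 8 beta tubulins it ranked 7 by mean FPKM and took 1.03% to 1.58% of the family in dopamine libraries and 0.43% to 4.76% in blank libraries. The most abundant per length were Tubb2a, Tubb5, Tubb2b and Tubb4b. Tubb2a stood at 295 to 416 CPM in dopamine libraries and 203 to 311 CPM in blank libraries, and Tubb5 at 293 to 861 CPM in dopamine libraries and 388 to 1278 CPM in blank libraries. Tubb2b was at 208 to 486 CPM in dopamine libraries and 217 to 440 CPM in blank libraries, and Tubb4b at 204 to 347 CPM in dopamine libraries and 152 to 391 CPM in blank libraries. Tubb6 was at 45.1 to 172 CPM in dopamine libraries and 46.5 to 361 CPM in blank libraries, and like Tubb5 it was highest in blank U and next highest in dopamine 1. Tubb4a stood at 64.9 to 87.6 CPM in dopamine libraries and 31.1 to 78.4 CPM in blank libraries, and Tubb1 stayed at or below 0.32 CPM. Near-identical tubulin genes can share reads, so the split among them is uncertain.

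Of 24 genes of the neuronal cytoskeleton, 21 were tested, 11 on the higher side and 10 on the lower, with a median of 0.0057, and 0 passed in edgeR or DESeq2. A single one, the neurofilament gene Nefm, had an unadjusted p below 0.05, against 2.94% of all genes tested. It stood at 109, 19.2 and 36.2 CPM in dopamine 1, 2 and 3, against 18.2, 13.6 and 20.3 CPM in blank 2, blank 3 and blank U (1.66 ± 0.61). Dpysl3, a collapsin response protein, gave -0.54 ± 0.28, and Gap43, a growth cone protein, gave -0.97 ± 0.64. Tuba1a, the alpha tubulin of neurons and other cells, led the list at 970 to 1667 CPM in dopamine libraries and 718 to 1756 CPM in blank libraries.

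**Figure D2:**
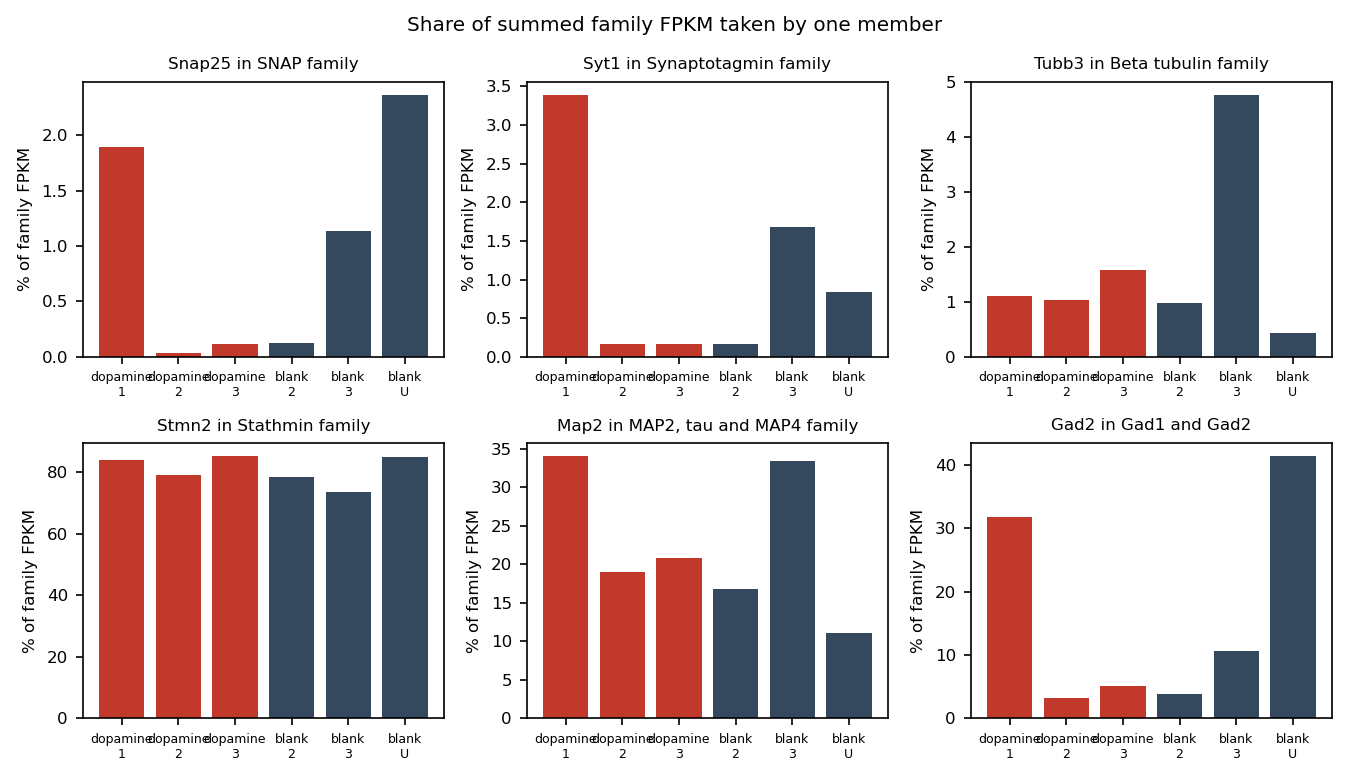
Share of the summed FPKM of a gene family taken by 1 member (percent, axes from 0), in the 3 dopamine libraries (red, left) and the 3 blank libraries (dark, right). Stmn2 holds 73.4% to 85.2% of its family throughout, while Snap25, Syt1 and Tubb3 stay under 5% of theirs, and Gad2 reaches 31.8% in dopamine 1 and 41.4% in blank U.

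Ngfr (chromosome 11, 95459644 to 95478561, minus strand) had 346, 2 and 2 counts in dopamine 1, 2 and 3, against 2, 32 and 105 counts in blank 2, blank 3 and blank U. In CPM this was 19.8, 0.088 and 0.091 in dopamine 1, 2 and 3, against 0.12, 1.71 and 5.03 in blank 2, blank 3 and blank U. The 3 values of 2 counts lie under the limit of 3 counts that a count of 0 allows. The fitted fold changes of Ngfr given further on rest in part on these libraries. Ntrk2, the receptor of brain-derived neurotrophic factor, was at 166, 445 and 299 CPM in dopamine 1, 2 and 3, against 404, 153 and 145 CPM in blank 2, blank 3 and blank U. It was lowest in the 3 libraries in which Ngfr was highest.

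Of 21 neurotrophin genes and Ngfr partners, 19 were tested, 7 on the higher side and 12 on the lower, with a median of -0.14. In edgeR 0 passed and 0 had an unadjusted p below 0.05, and DESeq2 made 0 calls. The sortilin relative Sorcs1 (-0.94 ± 0.41) and the ligand gene Ntf3 (-1.51 ± 0.67) were among those with the smallest unadjusted p. Ntf3 stood at 2.98, 4.64 and 3.91 CPM in dopamine 1, 2 and 3, against 2.78, 20.1 and 9.97 CPM in blank 2, blank 3 and blank U, with blank 3 highest. The most abundant per length were Bex3, an interactor of the p75 receptor, at 184 to 297 CPM in dopamine libraries and 182 to 410 CPM in blank libraries, the GTPase inhibitor Arhgdia at 292 to 345 CPM in dopamine libraries and 276 to 550 CPM in blank libraries, and Rtn4, which encodes the myelin inhibitor Nogo, at 610 to 1054 CPM in dopamine libraries and 572 to 1007 CPM in blank libraries.

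Regulators that act on these genes in neurons were measured in the same libraries. REST represses neuronal genes outside the nervous system through a complex with Rcor1, histone deacetylases and the demethylase Kdm1a. Rest stood at 47.9, 50.4 and 52.4 CPM in dopamine 1, 2 and 3, against 58.8, 55.4 and 68.7 CPM in blank 2, blank 3 and blank U (-0.28 ± 0.17). The groups did not overlap for Rest, Rcor3 (-0.31 ± 0.23) and Kdm1a (0.21 ± 0.17), 3 of the 13 genes of the complex, where 4.0% of all genes tested lay wholly above and 4.47% wholly below. By edgeR 0 of the 13 passed and 0 had an unadjusted p below 0.05, and DESeq2 made 0 calls. Hdac2 (-0.27 ± 0.25) and Ehmt2 (-0.085 ± 0.23), the other most abundant members per length, and Rcor2 (0.71 ± 0.40) overlapped between groups.

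Dlx1 and Dlx2, homeodomain factors of GABA neuron precursors, were highest in the libraries in which the decarboxylases were high. Dlx1 stood at 18.3, 1.77 and 1.82 CPM in dopamine 1, 2 and 3, against 1.33, 2.46 and 8.77 CPM in blank 2, blank 3 and blank U. Dlx2 was at 20.4, 3.31 and 3.50 CPM in dopamine 1, 2 and 3, against 2.49, 5.34 and 10.7 CPM in blank 2, blank 3 and blank U. Dlx5 and Dlx6, their later partners, stayed at or below 0.23 CPM. Of 22 neuronal identity regulators 10 were tested, 5 on each side, with 0 calls by edgeR or DESeq2 and 0 at an unadjusted p below 0.05. Of all 22, 10 stayed below 1 CPM in every library, and Neurod6 had no count. From this list, levels are given here for Dlx genes only.

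Dopamine against blank, the comparison the study was built on, gave 0 calls among the 9 genes. edgeR called 0 of 15420 genes (0.0%) at a Benjamini-Hochberg adjusted p of 0.05, with 454 genes (2.94%) at an unadjusted p below 0.05. DESeq2 made 20 calls among 15340 genes (0.13%), and gave no adjusted p for Gad2 and Vgf. None of the 9 was among these 454 or these 20, and none had groups that did not overlap, against 8.48% of all genes tested. All 9 passed the filter on low counts, Ngfr only through its high libraries, as dopamine 2, dopamine 3 and blank 2 had 2 counts each. The log2 fold changes were 1.53 ± 1.93 for Ngfr, 1.49 ± 1.80 for Vgf, 0.47 ± 0.60 for Gad1, 0.43 ± 1.26 for Syt1, 0.22 ± 1.69 for Gad2 and 0.01 ± 0.60 for Map2 (SE, n = 3 per group). Tubb3 gave -0.36 ± 0.68, Stmn2 -0.53 ± 0.59 and Snap25 -0.64 ± 1.38. Each of the 9 was smaller than its SE. Their median was 0.22, against 0.01 over all genes tested, where 51.7% lay on the higher side.

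Group means repeat this. Vgf averaged 485 ± 781 CPM in dopamine libraries and 172 ± 234 CPM in blank libraries (SD, n = 3 each), and Gad2 10.4 ± 16.8 CPM in dopamine libraries and 8.90 ± 13.0 CPM in blank libraries. Stmn2 averaged 277 ± 164 CPM in dopamine libraries and 399 ± 208 CPM in blank libraries. Of the variance of log2 CPM, the part between the groups ran from 0.00065% for Tubb3 to 13.5% for Snap25, against a median of 9.69% over all genes tested.

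Without dopamine 1, each of the 9 log2 fold changes was negative. They were -0.51 for Gad1, -3.67 for Gad2, -2.31 for Vgf, -3.56 for Snap25, -2.29 for Syt1, -1.07 for Stmn2, -0.43 for Map2, -0.48 for Tubb3 and -4.59 for Ngfr, and edgeR again called 0 genes. The value for Ngfr rests on 2 and 2 counts in the remaining dopamine libraries and depends on the prior count of the fit. Within the 4 libraries numbered 2 and 3, the 8 genes still tested were also all on the lower side, from -3.03 for Snap25 to -0.15 for Gad1 and Vgf, with 0 genes called. The signs of Gad1, Gad2, Vgf, Map2, Syt1 and Ngfr with all 6 libraries thus turned with dopamine 1 left out. Dopamine 1 was above the 6-library mean for all 9, so each value is lower without it. Leaving out blank U instead gave 0.84 for Gad1, 2.89 for Gad2, 3.66 for Vgf, 0.18 for Syt1 and 2.84 for Ngfr, and -0.10 for Snap25, -0.36 for Map2, -0.73 for Tubb3 and -0.26 for Stmn2, again with 0 genes called.

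**Figure D3:**
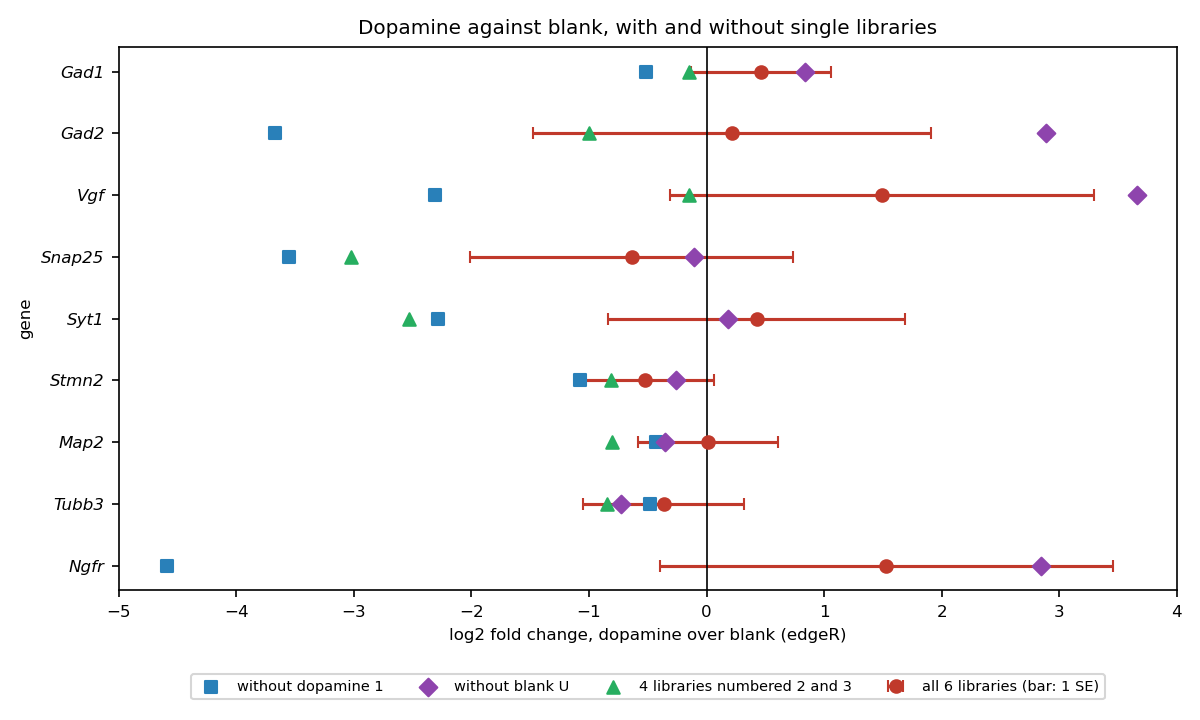
Log2 fold change of each gene, dopamine over blank, from edgeR with all 6 libraries (circles, bars of 1 SE), without dopamine 1 (squares), without blank U (diamonds) and with the 4 libraries numbered 2 and 3 alone (triangles, Ngfr not tested). All squares and triangles lie below 0, whereas 6 of the 9 circles lie above it and the diamonds reach 3.66 for Vgf.

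Between libraries the 9 genes formed a common order with exceptions. Dopamine 1 was above the mean of the 6 libraries for all 9, by a median of 2.17 log2 units, blank U for 7 (median 0.87) and blank 3 for 6 (median 0.79). Dopamine 2 and blank 2 were below it for all 9 (medians -1.40 and -1.29) and dopamine 3 for all but Tubb3 (median -0.64). The SD of log2 CPM over the libraries was 2.87 for Ngfr, 2.86 for Vgf, 2.49 for Gad2, 2.22 for Snap25 and 1.78 for Syt1, against a median of 0.41 over all genes tested. For Gad1, Map2, Stmn2 and Tubb3 it was 0.81 to 0.92.

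Over the 36 pairs of these genes, Pearson's r of log2 CPM across the 6 libraries ran from -0.13 to 0.96 with a median of 0.73. These are descriptions over 6 points that share their libraries, and the genes had been chosen for their pattern. Snap25 and Stmn2 gave 0.96, Gad2 and Ngfr 0.96, Gad2 and Vgf 0.94, and Gad1 and Gad2 0.91. Map2 and Tubb3 gave 0.84, and Gad1 with Tubb3 and Gad2 with Map2 -0.13 and 0.07. Gad1, Gad2, Vgf, Snap25 and Ngfr were highest in dopamine 1 and next in blank U, and Map2 and Tubb3 were highest in blank 3. Snap25, Stmn2, Syt1 and Ngfr were above their mean in all 3 of these libraries.

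**Figure D4:**
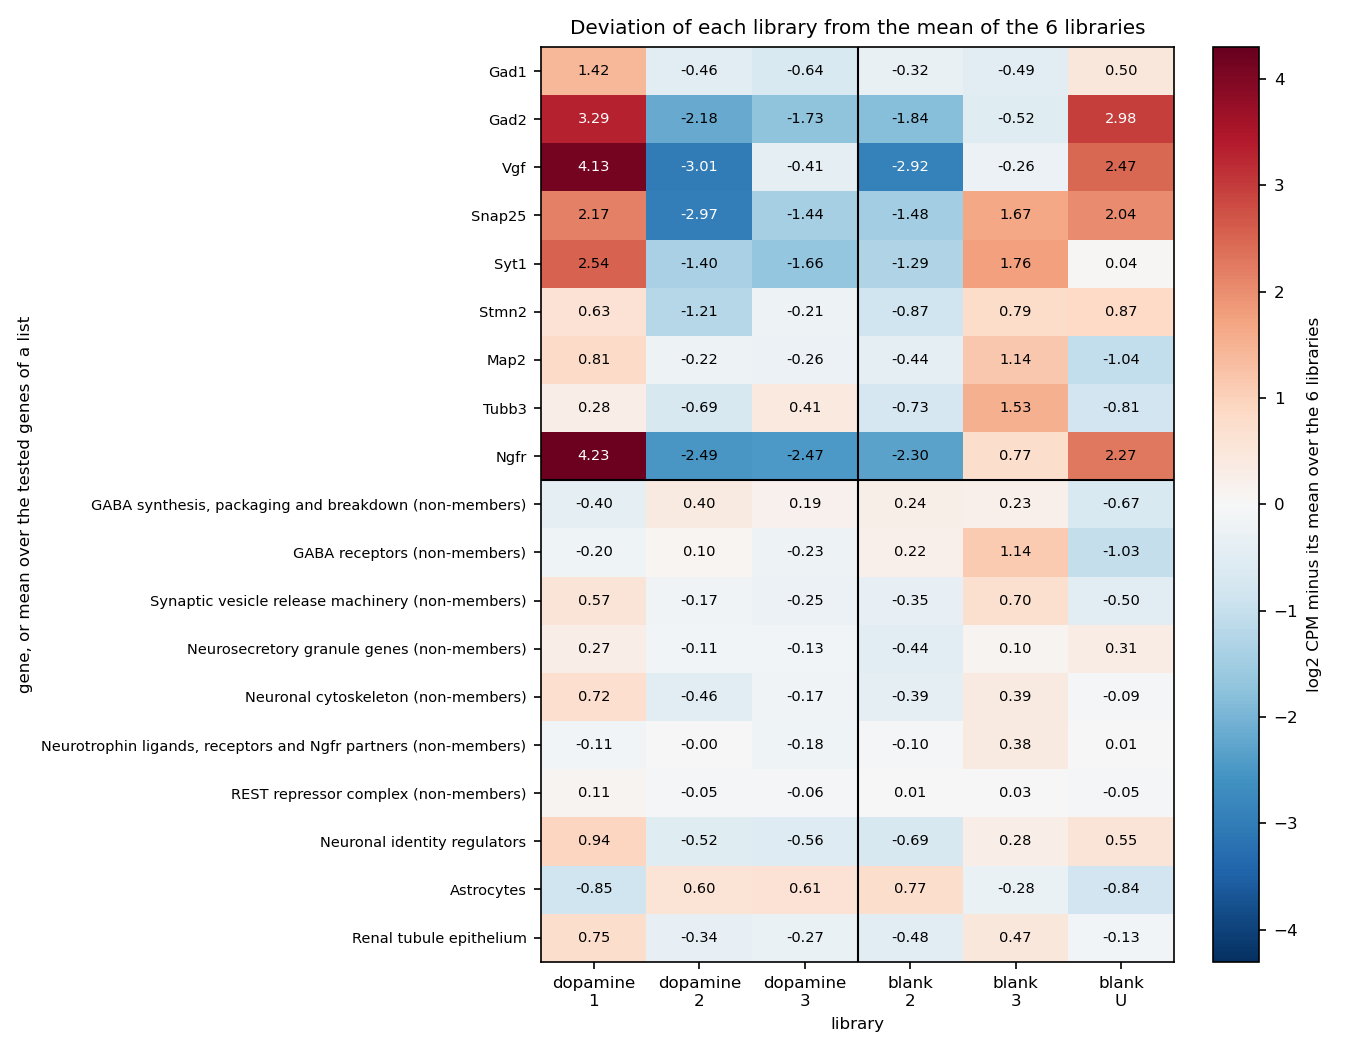
Log2 CPM of each library minus the mean of the 6 libraries, for the 9 genes (above the line) and as list means (below it), with the 3 dopamine libraries left of the 3 blank libraries. Pathway rows, marked as non-members, are means over the tested genes that are not among the 9. The neuronal identity, astrocyte and renal tubule rows are means over all tested genes of the list. Vgf reaches 4.13 and Ngfr 4.23 in dopamine 1. Rows for lists are means over many genes and so span less than single genes. The astrocyte list is at -0.85 in dopamine 1, -0.84 in blank U and -0.28 in blank 3.

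Marker lists of other cell types differed in how they varied over the same libraries. The 15 tested astrocyte markers lay at -0.85, 0.60 and 0.61 log2 units relative to the 6 libraries in dopamine 1, 2 and 3, against 0.77, -0.28 and -0.84 in blank 2, blank 3 and blank U. The 12 fibroblast and pericyte markers lay at -2.02 in dopamine 1 and between 0.06 and 0.70 in the other 5 libraries, with a summed level of 785 to 3566 CPM in dopamine libraries and 2512 to 3704 CPM in blank libraries. The 6 tested neuroendocrine and chromaffin markers lay at 0.99 in dopamine 1 and 0.52 in blank 3, with a summed level of 20.2 to 38.9 CPM in dopamine libraries and 10.9 to 38.4 CPM in blank libraries. Of all 12 of these, 6 stayed below 1 CPM, Th and Dbh among them, and Pnmt had no count. Of 12 Schwann and neural crest markers, which include Ngfr, 3 stayed below 1 CPM, Foxd3 among them and Sox10 with no count, and the sum was 130 to 154 CPM in dopamine libraries and 94.0 to 131 CPM in blank libraries. The 7 tested oligodendrocyte lineage markers stayed between -0.09 and 0.19. The 8 tested renal tubule markers lay at 0.75 in dopamine 1, 0.47 in blank 3 and between -0.48 and -0.13 in the other 4 libraries. Of 12 leukocyte markers 10 stayed below 1 CPM, Cd3e and Cd4 had no count, and the summed level was 1.55, 43.2 and 39.5 CPM in dopamine 1, 2 and 3, against 40.3, 1.23 and 15.4 CPM in blank 2, blank 3 and blank U. Of 7 endothelial markers 4 stayed below 1 CPM, and the sum was 14.2 to 59.1 CPM in dopamine libraries and 49.1 to 210 CPM in blank libraries. The 10 tested clear cell renal carcinoma markers, of 11, lay at -0.42 to 0.43, lowest in dopamine 1 and highest in blank 2. The part of these differences in the pattern of the 9 genes was not tested.

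Genes whose level across the 6 libraries was most like that of each gene were sought among 11170 genes with a mean of at least 5 CPM. With 6 points and so many genes, values of r near 1 are common: 8 to 251 genes per member reached 0.95. For Gad1 the closest were Ptpn12 and Socs5 (r = 0.993 and 0.991), for Gad2 Camk2b and G3bp1 (0.999 and 0.996) and for Vgf Cfap36 and Nup93 (both 0.994). Snap25 was closest to Mapk14 (0.999) and Rian (0.994), Syt1 to Stk24 (0.996) and Sgms1 (0.993), and Stmn2 to Ehbp1l1 (0.995) and Zfp697 (0.993). Map2 was closest to Cacna1g (0.992), Nup62cl (0.989) and Stmn4 (0.987), Tubb3 to Letm2 (0.993) and Bex3 (0.987), and Ngfr to Prkar2a (0.999) and Prokr1 (0.995). The third places were held by Zcchc2 for Gad1, Zfp639 for Gad2, Rps10 for Vgf, Eps15l1 for Snap25 and Stmn2, Radil for Syt1, Mapk11 for Tubb3 and Nphp4 for Ngfr. Camk2b, at 20.3, 5.17 and 5.46 CPM in dopamine 1, 2 and 3, against 5.61, 7.86 and 19.4 CPM in blank 2, blank 3 and blank U, had the order of Gad2 over a narrower range.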

How the data were processed

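The authors deposited a table of 56691 genes with raw read counts and FPKM values per library, exonic lengths and gene positions, per the file headers. Per the submitters' processing notes, the genome was GRCm39. Which aligner, counter, strand setting and annotation were used was not given in the sources used here. A SMART-Seq HT kit, which does not mark strand, and paired reads of 150 bases were used, per the labels' protocols for the kit and reads. FPKM were recomputed from counts. The deposited FPKM lay within 0.005 of these for 100% of genes in dopamine 2, blank 2 and blank 3 and for 94.6% in dopamine 1. An FPKM column whose name matches no label and that of blank U were not used, so 2 columns of per-library values were left out.

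Counts were tested with edgeR 4.0.16 in R 4.3.3: filterByExpr (15420 genes), TMM scaling and the quasi-likelihood test, 2-sided, with no covariate, and Benjamini-Hochberg adjustment at 0.05. CPM are per TMM-scaled library size. SE of a log2 fold change is its size divided by the square root of F. DESeq2 1.42.0 and limma 3.58.1 gave alternatives. The fits were tested on simulated data. Members, 23 gene lists and tests were chosen with earlier results of these data known. Genes named were the members, per pathway list the 3 non-members of smallest p and the 3 genes of highest FPKM, family members, cell type markers and the 3 genes of highest r with each member. Some genes that this rule names are not reported here. Abat, Ntrk2 and Slc32a1 were named after their values were seen. The 4 libraries sharing numbers 2 and 3 are not paired by the labels. Mean ± SD are over 3 libraries per group. RefSeq promoter windows (GRCm38.p6) were used for sequence only. Limits of 3 counts cover counting error only, as amplified reads are not independent molecules.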

Additional observations from a re-analysis of the deposited data

How the results depend on the processing

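The count of 0 genes called by edgeR stayed 0 with RLE size factors, total counts only, no filter on low counts, at least 1 CPM in 3 libraries, limma on log2(FPKM + 1), each library left out, and the 4 libraries numbered 2 and 3 with or without the replicate block. DESeq2 called 20. Map2 turned to -0.0022 with DESeq2, -0.0023 with RLE size factors and -0.021 with total counts only, and Gad2 to -0.017 in limma. With the replicate block on the 4 libraries numbered 2 and 3, the log2 fold changes were -0.15 for Gad1, -0.88 for Gad2, -0.13 for Vgf, -0.60 for Map2 and -1.89 for Syt1, and without the block -0.15, -1.001, -0.15, -0.80 and -2.53. Deviations of dopamine 2 and blank 2 from the mean of libraries 2 and 3 of their own group correlated at -0.089, so the numbers were not taken as pairs. Leaving out 1 library at a time, the log2 fold change ran from -0.51 to 0.84 for Gad1, -3.67 to 2.89 for Gad2, -2.31 to 3.66 for Vgf, -0.43 to 0.91 for Map2, -0.73 to 0.86 for Tubb3, -2.29 to 1.61 for Syt1 and -4.59 to 2.84 for Ngfr. Without dopamine 1, Gad1, Gad2, Vgf, Map2, Syt1 and Ngfr turned. Without blank 2, Gad2 (-0.33), Map2 (-0.23) and Syt1 (-0.029) turned, without blank 3 Gad2 (-0.25) and Tubb3 (0.86), and without blank U Map2 (-0.36). The cause was not tested. Snap25 and Stmn2 stayed negative in all 14 alternatives, and adjusted p-values of the 9 genes by edgeR, DESeq2 or limma were at least 0.545 over the alternatives. Ngfr was not tested in the fits of 4 libraries. Of the pathway lists, the median of the neuronal cytoskeleton list turned in 12 of 14 alternatives (-0.44 to 0.16), that of granule genes in 2, and those of GABA receptors, vesicle release and the REST complex in 1 each. Unscaled totals moved CPM by a factor of 0.943 to 1.06. With CPM in place of FPKM, 11 of 36 family shares moved by more than the SD of their group. Stmn2 then took 90.6% to 95.3% of its family, Snap25 up to 5.15% (blank U) and Syt1 up to 5.52% (dopamine 1). Depth limits Ngfr, Gad2 and Snap25 in their low libraries.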

Other observations

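Among list genes that the sections above do not describe, chosen here after their values were seen, several were high in dopamine 1 and blank U, like the decarboxylases. Nptx2, a secreted pentraxin of excitatory synapses, stood at 27.3, 0.62 and 0.55 CPM in dopamine 1, 2 and 3, against 0.52, 2.51 and 12.6 CPM in blank 2, blank 3 and blank U. Its relative Nptx1 was at 39.7, 4.51 and 3.82 CPM in dopamine 1, 2 and 3, against 5.61, 7.0 and 97.6 CPM in blank 2, blank 3 and blank U. Insm1, a neuroendocrine transcription factor, was at 5.79, 0.088 and 0.41 CPM in dopamine 1, 2 and 3, against 0.405, 0.86 and 4.07 CPM in blank 2, blank 3 and blank U. Other neuroendocrine markers of its list did not share this order. Chgb was lowest in dopamine 1, at 2.69 CPM, and highest in dopamine 2, at 14.6 CPM. Chga and Syp were highest in blank 3, at 10.2 and 17.8 CPM, and stood at 0.72 and 0.43 CPM in blank U.

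A second set was high in dopamine 1 and blank 3 but not in blank U. Syn1, a synaptic vesicle phosphoprotein, stood at 48.1, 7.78 and 8.23 CPM in dopamine 1, 2 and 3, against 5.27, 48.0 and 4.12 CPM in blank 2, blank 3 and blank U. Slc17a7, a vesicular glutamate transporter, was at 22.1, 1.94 and 1.36 CPM in dopamine 1, 2 and 3, against 0.75, 15.7 and 1.68 CPM in blank 2, blank 3 and blank U. The neurofilament gene Nefl was high in dopamine 1 alone, at 61.1 CPM, with 1.11 and 4.14 CPM in dopamine 2 and 3 and 2.08, 5.56 and 10.4 CPM in blank 2, blank 3 and blank U.

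Besides Gad2, the RE1 core was found before 13 other genes of the RefSeq table, 12 of all 14 being in the deposited table and 9 tested. Of those tested besides Gad2, none had dopamine 1 and blank U as its highest pair of libraries. Ogdhl and Scamp5 were lowest there, at 76.005 and 79.2 CPM and at 44.7 and 51.4 CPM. Lca5 shared the 3 highest libraries of Gad2, at 13.5 to 16.6 CPM there against 7.87 to 12.2 CPM elsewhere. Gria2, Osbp2 and Sptbn4 were lowest in blank U, and Robo2 in dopamine 1. Hrh3 was highest in dopamine 3. A link between motif and level was not tested.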
